A study of Mus musculus with 12 samples.

Results

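The difference described here is the one between skin-derived precursor spheres from wounded skin and spheres from uninjured skin, taken over every wound group at once. It rests on all 12 arrays of the series, 9 from wounded skin and 3 from uninjured skin, which were assigned by the sample titles. Skin-derived precursors (SKPs) are cells of the dermis that form floating spheres in culture and can make dermal and some neural crest cell types. The series title places the work in a search for drugs that improve skin repair. The cells came from CD57/Bl6 mice (strain as spelled in the labels) aged 9 months. No gene deletion or transgene is named for any group. The 4 groups of 3 arrays were uninjured skin given vehicle, wounded skin given vehicle, wounded skin given trimebutine maleate, an opioid receptor agonist used for gut motility, and wounded skin given alprostadil, which is prostaglandin E1. Every culture held 50000 cells per ml in medium with 40 ng/ml of FGF2, 20 ng/ml of EGF and 2% B27. The RNA came from secondary spheres, and 400 ng of it went into each cDNA preparation. No group of uninjured skin received a drug. Drug doses, treatment time, wound age and skin site were not given in the sources used here. Injury and a difference of skin site therefore cannot be told apart in what follows. Each group's samples are independent isolates by the series text, and the p-values below rest on the spread among these isolates.

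Dermal fibroblasts keep a memory of where on the body they arose. Hox genes, which lie in 4 clusters and pattern the body axis, T-box genes such as the forelimb factor Tbx5, and other patterning factors stay on or off in cultured skin cells according to their origin. Wounding also recruits fibroblasts that make, cut and remodel matrix, through collagens, integrins and metalloproteinases such as the interstitial collagenases. Mouse carries a pair of genes for that collagenase, Mmp1a and Mmp1b, both on chromosome 9.

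The smallest p of the comparison belonged to Mmp1b, and Mmp1a also lay lower on all 9 wound arrays, so the promoters of the pair are shown. Both were taken from RefSeq on build GRCm38.p6 and hold the 250 bases before the annotated start, 5′ to 3′ on the strand of the gene. Mmp1b lies at chr9:7388027-7388276 on the minus strand and Mmp1a at chr9:7463891-7464140 on the plus strand. The capitals mark matches to the AP-1 motif (TGANTCA) and to a TATA box (TATAAA), searched on both strands.
Mmp1b: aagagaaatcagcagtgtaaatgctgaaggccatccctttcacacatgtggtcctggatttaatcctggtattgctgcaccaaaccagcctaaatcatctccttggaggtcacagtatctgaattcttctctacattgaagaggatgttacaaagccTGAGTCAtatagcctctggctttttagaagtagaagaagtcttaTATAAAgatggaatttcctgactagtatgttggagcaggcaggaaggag
Mmp1a: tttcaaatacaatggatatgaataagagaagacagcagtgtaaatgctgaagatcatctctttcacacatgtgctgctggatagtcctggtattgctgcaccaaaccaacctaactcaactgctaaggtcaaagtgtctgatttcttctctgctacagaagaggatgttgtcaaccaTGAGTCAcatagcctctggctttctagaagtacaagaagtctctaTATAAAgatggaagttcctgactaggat
In an end-to-end alignment 196 of 275 columns were identical, which is 78.4% of 250 bases. The AP-1 match spans bases 93 to 87 before the start in Mmp1b and 73 to 67 in Mmp1a, and the TATA match spans bases 49 to 44 and 28 to 23. Over the 32851 RefSeq promoter windows of 250 bases, 6.75% hold the AP-1 motif and 12.4% the TATA motif. Of the 22 genes past the threshold below that the RefSeq table holds, 2 have the AP-1 motif (Adam19 and Mmp1b) and 3 the TATA motif (Art3, Mmp1b and Thrb). A match of letters describes the window and does not show binding.

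Values are log2 expression values, and 1 log2 unit is a 2-fold difference. All differences are the mean of the 3 wound group means minus the uninjured mean, with the standard error (SE) of the fit. Of 13153 genes tested in limma with Benjamini-Hochberg adjustment, 13 rose and 19 fell in spheres from wounded skin at an adjusted p under 0.05, which is 0.0988% and 0.144% of the genes tested. The rises ranged from 0.37 to 2.28 log2 units and the falls from 0.49 to 2.23 in size, and 19 of the 32 were at least 1 log2 unit. For each of the 32 the 9 wound arrays lay on one side of the 3 uninjured arrays, with gaps between the groups of 0.12 to 0.93 and a median gap of 0.41. Of the 32, 24 lay above the array median on all 12 arrays. Mmp1b, C1ql1, Bcl11b and Hoxc10 lay above it on 4, 5, 6 and 4 arrays, and would not be tested under a filter of 9 arrays. Mmp1b, C1ql1 and Hoxc10 were tested through the uninjured arrays, where they are high. Bcl11b lay above the median on 3 uninjured and 3 wound arrays. For Mmp1b, C1ql1, Bcl11b and Hoxc10 the size of the fall is set against wound values near or below the array median, where an array measures a level poorly. Among all genes tested, 170 had every wound array above every uninjured array (1.29%) and 167 had every wound array below (1.27%). The median difference over all genes was 0.01 after the authors' normalisation.

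**Figure D1:**
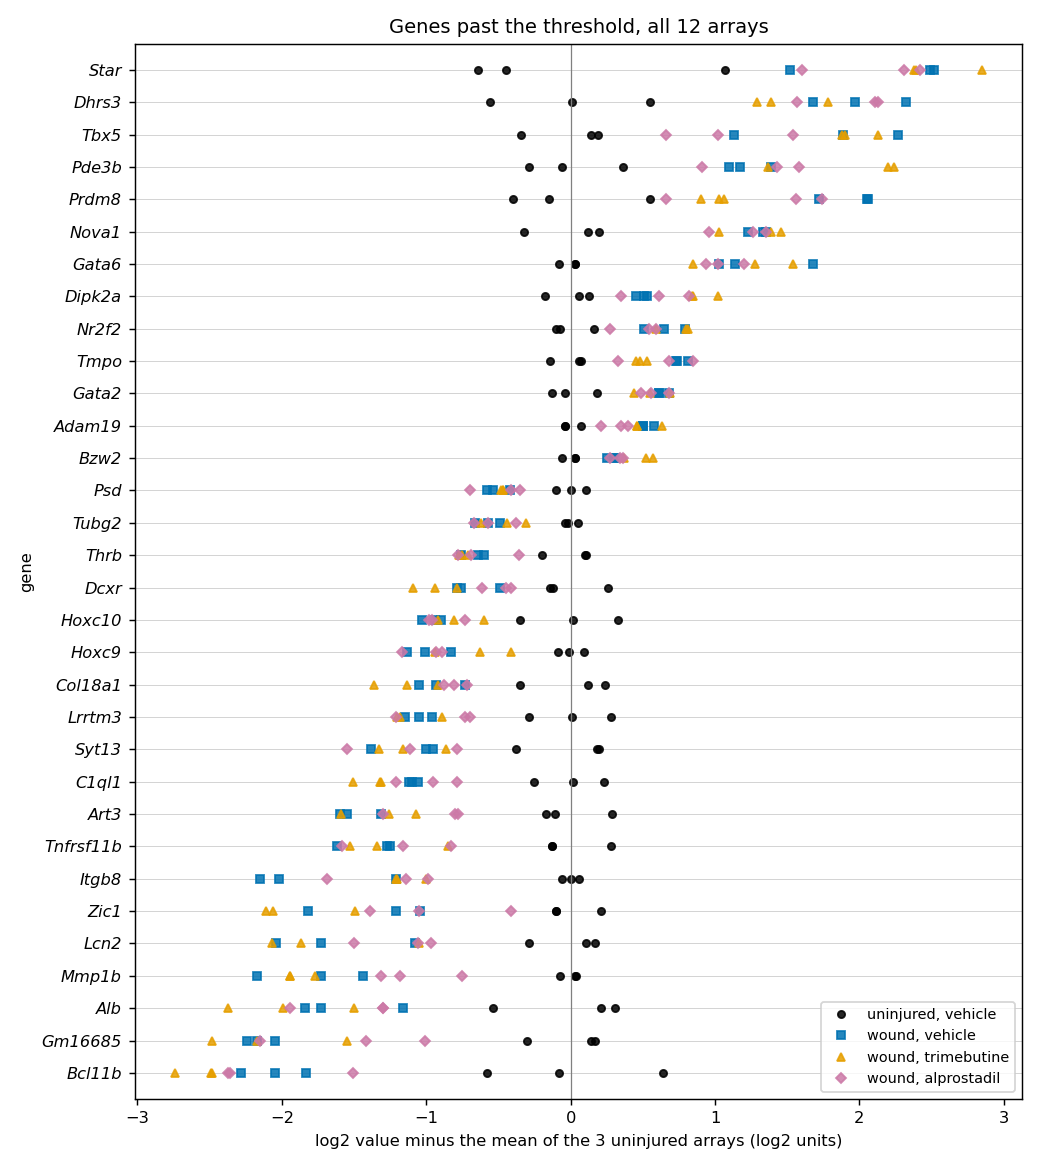
Each row is 1 of the 32 genes past the threshold, and each point is 1 array, as its log2 value minus the mean of the 3 uninjured arrays (x axis, log2 units). Black circles are uninjured arrays, and the blue squares, orange triangles and pink diamonds of the wound groups lie to the right for 13 genes and to the left for 19, with no overlap in any row.

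The plot of the 32 genes shows the wound points close to the uninjured points for Bzw2, Psd and Tubg2 and farthest from them for Bcl11b, Gm16685, Star and Dhrs3. Which genes passed depended on single arrays. Without uninjured vehicle replicate 2 no gene passed in limma (0 of 13108). The directions of the 32 could not change under an omission of 1 array, since their wound and uninjured arrays do not overlap. Mmp1b, C1ql1, Nova1 and Bcl11b passed under 11 of the 12 omissions, Art3 under 10, Dhrs3 under 9, and Gata6, Hoxc9 and Gm16685 under 8. The remaining 23 passed under 2 to 6.

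**Figure D2:**
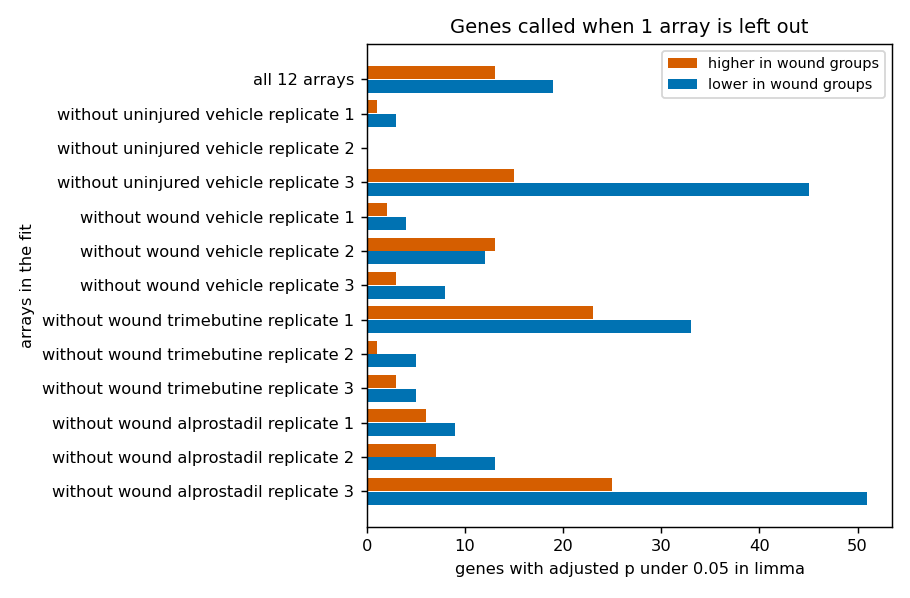
Bars give the number of genes with an adjusted p under 0.05 in limma (x axis), higher (orange) or lower (blue) in the wound groups, with all 12 arrays and with each array left out. The counts run from 0 and 0 without uninjured vehicle replicate 2 to 25 and 51 without wound alprostadil replicate 3.

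The plot of the omissions gives 1 higher and 3 lower without uninjured vehicle replicate 1, and 15 and 45 without replicate 3 of that group. Without wound vehicle replicates 1, 2 and 3 the counts were 2 and 4, 13 and 12, and 3 and 8. For the wound trimebutine replicates in the same order they were 23 and 33, 1 and 5, and 3 and 5. For the wound alprostadil replicates they were 6 and 9, 7 and 13, and 25 and 51. Genes with all wound arrays above numbered 342 without uninjured vehicle replicate 1, 255 without replicate 2 and 794 without replicate 3, and genes with all wound arrays below 246, 249 and 846. Uninjured vehicle replicate 3 thus lay inside the wound range for many genes for which the other 2 uninjured arrays did not.

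Mmp1b, an interstitial collagenase, fell. It stood at 7.83, 7.73 and 7.84 on the uninjured arrays and between 5.63 and 7.05 on the wound arrays, with a median of 6.07. All 9 wound arrays lay below the lowest uninjured array, and the highest of them was wound alprostadil replicate 3. The difference was -1.58 ± 0.15 log2 units (SE, limma adjusted p = 0.00604), and it stayed between -1.64 and -1.51 when single arrays were left out. Mmp1b lay above the array median on all 3 uninjured arrays and on 1 of 9 wound arrays. Mmp1a, its paralog, stood at 11.32, 10.96 and 10.90 against 8.69 to 10.42 (median 9.97), again without overlap, but at -1.51 ± 0.28 it did not pass (adjusted p = 0.0651). Whether RNA of one of the pair reaches the probes of the other was not tested.

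Other genes of the cell surface and matrix also moved. Itgb8, the integrin chain that activates latent TGF-beta, stood at 9.38, 9.32 and 9.44 on the uninjured arrays and at 7.23 to 8.39 (median 8.17) on the wound arrays. The uninjured values lay within 0.12 of each other, and the lowest wound values were wound vehicle replicates 1 and 2. The fall was -1.40 ± 0.20 (adjusted p = 0.0276). Col18a1, a basement membrane collagen whose end fragment is endostatin, was 10.96, 10.84 and 10.37 against 9.36 to 10 (median 9.80), a fall of -0.95 ± 0.13 (adjusted p = 0.0276). Adam19, a membrane-bound metalloproteinase, went the other way by 0.46 ± 0.07 (adjusted p = 0.0296), from 10.24, 10.13 and 10.13 to 10.38 to 10.80. Its second, dimmer probe set gave 0.16 ± 0.08 with overlapping arrays, so the rise rests on 1 probe set.

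Lcn2, Tnfrsf11b and Alb, which encode secreted proteins, also fell. Lcn2, lipocalin 2, which binds bacterial iron carriers, stood at 11.70, 11.64 and 11.24 on the uninjured arrays and at 9.46 to 10.56 (median 10.03) on the wound arrays, a fall of -1.48 ± 0.25 (adjusted p = 0.048). Tnfrsf11b, osteoprotegerin, the decoy receptor of RANKL, was 9.09, 9.50 and 9.09 against 7.60 to 8.39 (median 7.95), a fall of -1.27 ± 0.18 (adjusted p = 0.0296). Alb, which encodes albumin, was 8.97, 8.87 and 8.12 against 6.29 to 7.50 (median 6.93), a fall of -1.68 ± 0.25 (adjusted p = 0.0296), and it lay above the array median on 6 of 9 wound arrays. For all of these genes the uninjured arrays were the high ones and no wound array reached them. In bulk samples fewer cells of a type and less RNA per cell cannot be told apart, which holds for each result here.

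Bcl11b, Zic1 and Thrb, which encode transcription factors, fell. Bcl11b, a zinc-finger factor of skin and T cells, stood at 9.44, 8.72 and 8.22 on the uninjured arrays, which differ by over 1 unit among themselves, and at 6.06 to 7.29 (median 6.44) on the wound arrays. Its lowest uninjured array was still 0.93 above its highest wound array, wound alprostadil replicate 3, which was the widest gap of the 32 genes. The fall was -2.23 ± 0.25 (adjusted p = 0.012), but only 3 of 9 wound arrays lay above the array median. Zic1, a zinc-finger factor of neural crest and dorsal mesoderm, was 10.61, 10.61 and 10.92 against 8.60 to 10.30 (median 9.32), a fall of -1.40 ± 0.23 (adjusted p = 0.0465). The wound array of Zic1 nearest to the uninjured ones was wound alprostadil replicate 3, at 10.30. The other wound alprostadil arrays, at 9.32 and 9.66, lay within the wound vehicle range of 8.89 to 9.67. Thrb, a thyroid hormone receptor, fell by 0.68 ± 0.10 (adjusted p = 0.0296).

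Of the factors that rose, Tbx5, the T-box factor of forelimb and heart, stood at 6.48, 6.0 and 6.53 on the uninjured arrays, near the array medians of 6.57 to 6.74, and at 7.0 to 8.61 (median 8.22) on the wound arrays. Its lowest wound array was wound alprostadil replicate 3, and the rise was 1.60 ± 0.24 (adjusted p = 0.0323), set against 0 of 3 uninjured arrays above the array median. Gata6, a GATA factor of mesoderm and endoderm, had uninjured values of 8.75, 8.64 and 8.75 and wound values of 9.57 to 10.40 (median 9.86), a rise of 1.19 ± 0.16 (adjusted p = 0.0268). The uninjured arrays were tight and the wound arrays lay at least 0.8 above them. Gata2, of the same family, was 7.47, 7.38 and 7.69 against 7.95 to 8.20 (median 8.12) and rose by 0.59 ± 0.08 (adjusted p = 0.0276). Nr2f2, the orphan nuclear receptor COUP-TFII, was 7.76, 7.79 and 8.02 against 8.13 to 8.67, a rise of 0.62 ± 0.10 (adjusted p = 0.0415). Prdm8, a PR-domain factor, was 6.41, 6.66 and 7.36 against 7.47 to 8.87 (median 8.37) and rose by 1.42 ± 0.24 (adjusted p = 0.048), with 1 of 3 uninjured arrays above the array median. Uninjured vehicle replicate 3 was the highest uninjured array of both Prdm8 and Nr2f2 and lay just below their lowest wound array.

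Hox genes lay on both sides. Of 36 Hox genes on the array 21 were tested, 10 lay above 0 and 11 below, and 2 passed, both lower. Hoxc9 stood at 7.90, 7.80 and 7.72 on the uninjured arrays and at 6.64 to 7.40 (median 6.88) on the wound arrays, a fall of -0.88 ± 0.11 (adjusted p = 0.0248). Hoxc10 was 7.67, 7.36 and 6.99 against 6.31 to 6.74 (median 6.42), a fall of -0.88 ± 0.13 (adjusted p = 0.0296). Of the 9 wound arrays 7 lay above the array median for Hoxc9 and 1 for Hoxc10, so the size of the Hoxc10 fall is poorly measured. Both are genes of the posterior part of the HoxC cluster, and for both wound trimebutine replicate 1 was the wound array nearest to uninjured.

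A further 5 Hox genes had all 9 wound arrays on one side without passing. Hoxa6 was 8.54, 8.50 and 8.29 against 7.47 to 8.08 (-0.55 ± 0.11, adjusted p = 0.0893), and Hoxa5 was 6.90, 7.17 and 6.84 against 5.83 to 6.65 (-0.61 ± 0.15, adjusted p = 0.179). No wound array of Hoxa5 lay above its array median, so Hoxa5 was tested through the uninjured arrays, where it is high. On the other side were 3 anterior genes of the HoxB cluster. Hoxb2 was 6.83, 6.61 and 6.54 against 6.91 to 7.17 (0.38 ± 0.08, adjusted p = 0.122), Hoxb3 was 7.24, 7.22 and 7.44 against 7.52 to 8.03 (0.52 ± 0.11, adjusted p = 0.126), and Hoxb4 was 7.18, 7.11 and 7.16 against 7.28 to 8.01 (0.54 ± 0.15, adjusted p = 0.22). In all, 7 of 21 tested Hox genes (33.3%) had non-overlapping arrays, beside 2.56% of all genes tested, while the median difference of the list was -0.04. Hoxc10 and Hoxa5 are counted among them although they were tested through the uninjured arrays. Hoxb2 is counted although it was tested through the wound arrays, since its uninjured values of 6.61 and 6.54 lay below their array medians of 6.72. The list was drawn up with results of these arrays known, and Hox genes of a cluster share their neighbourhood and are not independent.

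**Figure D3:**
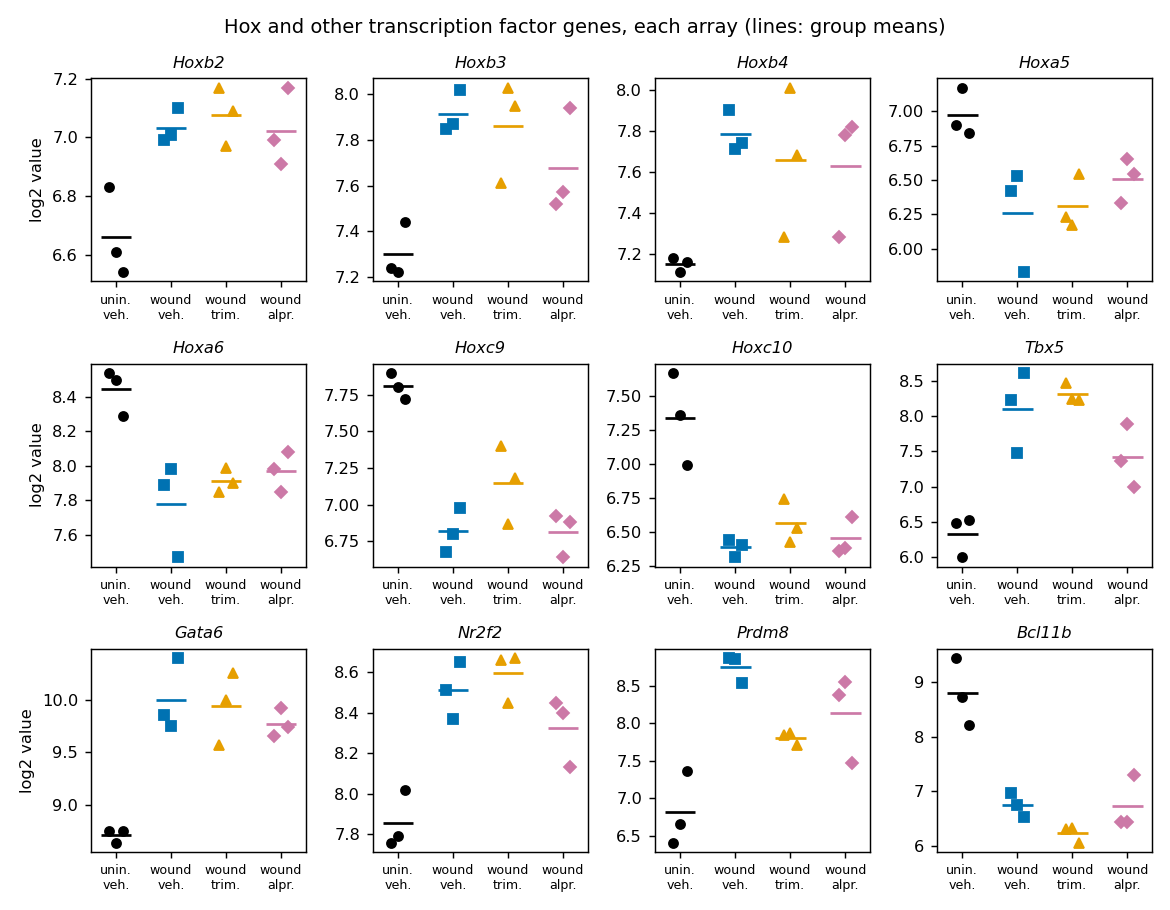
Each panel is 1 Hox or other transcription factor gene, with the log2 value of every array (y axis) by group (x axis: uninjured vehicle, wound vehicle, wound trimebutine, wound alprostadil) and lines at the group means. The wound arrays lie above the uninjured arrays for Hoxb2, Hoxb3, Hoxb4, Tbx5, Gata6, Nr2f2 and Prdm8 and below them for Hoxa5, Hoxa6, Hoxc9, Hoxc10 and Bcl11b.

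The panels of Hox and other factor genes hold genes picked because all wound arrays lay on one side of uninjured skin. That each wound group lies away from uninjured skin in them follows from this choice. Hoxb5, Hoxb6 and Hoxb7, which are not shown, had overlapping arrays. Of 27 tested T-box and other positional genes 4 rose (Tbx5, Gata6, Prdm8 and Nr2f2) and 1 fell (Bcl11b), with a median difference of -0.02 over the list. These 5 genes, 18.5% of the list, were its members with non-overlapping arrays, beside 2.56% of all genes tested. Tbx5 and Prdm8 are counted among them although they were tested through the wound arrays, where they are high. This list too was drawn up with results of these arrays known. En1, Nr2f1 and Tbx15, named here after their values were seen, had differences of -0.64 ± 0.17, -0.35 ± 0.08 and -0.41 ± 0.15 with overlapping arrays and adjusted p of 0.194, 0.147 and 0.344.

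Genes of retinoid, steroid and cyclic nucleotide handling were among the widest rises. Star, the protein that brings cholesterol to the inner mitochondrial membrane for steroid synthesis, stood at 7.03, 6.84 and 8.55 on the uninjured arrays and at 9.00 to 10.33 (median 9.87) on the wound arrays. Uninjured vehicle replicate 3 was over 1 unit above the other 2 and yet below every wound array. The rise was 2.28 ± 0.36 (adjusted p = 0.0415). Dhrs3, which reduces retinaldehyde to retinol and is itself a target of retinoic acid, was 8.56, 7.99 and 9.10 against 9.84 to 10.87 (median 10.33), a rise of 1.81 ± 0.23 (adjusted p = 0.021).

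Pde3b, a phosphodiesterase that degrades cAMP, was 7.97, 8.39 and 7.74 on the uninjured arrays and 8.94 to 10.27 (median 9.42) on the wound arrays, a rise of 1.49 ± 0.21 (adjusted p = 0.0296). Its highest values were wound trimebutine replicates 2 and 3, at 10.27 and 10.23. The medians of the retinoic acid list and of the prostaglandin and cAMP list were near 0. Of 18 tested retinoic acid genes 11 lay above 0, only Dhrs3 passed, and the median was 0.09 (0.01 without wound vehicle replicate 3). The next smallest p belonged to Cyp26b1, which breaks down retinoic acid (-0.37 ± 0.10, adjusted p = 0.22). Of 26 prostaglandin and cAMP genes 14 lay above 0, only Pde3b passed, and the median was 0.00. Pde4b, another cAMP phosphodiesterase, was at -0.57 ± 0.17 (adjusted p = 0.245) and Ptges, a prostaglandin E synthase, at -0.40 ± 0.12 (adjusted p = 0.267), each without overlap. Non-overlapping arrays made up 11.5% of this list and 11.1% of the retinoic acid list, beside 2.56% of all genes tested. Both lists were drawn up with results of these arrays known.

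Nova1 rose, and C1ql1, Lrrtm3 and Syt13 fell. Nova1, a neuronal splicing regulator, stood at 6.90, 7.34 and 7.42 on the uninjured arrays and at 8.18 to 8.68 (median 8.55) on the wound arrays. The wound arrays lay within 0.5 of each other and the rise was 1.26 ± 0.13 (adjusted p = 0.00896). C1ql1, a secreted synapse organiser of the C1q family, was 7.91, 7.70 and 7.43 against 6.17 to 6.89 (median 6.56), a fall of -1.15 ± 0.11 (adjusted p = 0.00604), with 2 of 9 wound arrays above the array median. Lrrtm3, a synaptic adhesion protein, was 8.74, 8.47 and 8.17 against 7.25 to 7.76 and fell by 1.01 ± 0.14 (adjusted p = 0.0276). Syt13, a member of the synaptotagmin family, was 9.55, 9.53 and 8.97 against 7.80 to 8.56 and fell by 1.13 ± 0.18 (adjusted p = 0.0476).

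The remaining genes that passed have varied roles. The predicted gene Gm16685 fell from 10.15, 10.12 and 9.68 to 7.50 to 8.97 (median 7.83), a difference of -1.92 ± 0.24 (adjusted p = 0.021). Art3, of the ADP-ribosyltransferase family, fell from 9.08, 9.02 and 9.48 to 7.59 to 8.41, by 1.25 ± 0.15 (adjusted p = 0.0206). Smaller falls were those of Dcxr, a carbonyl and xylulose reductase (-0.70 ± 0.11), Tubg2, a gamma tubulin (-0.52 ± 0.08), and Psd, an exchange factor of the small GTPase ARF6 (-0.49 ± 0.08). Smaller rises were those of Dipk2a (0.66 ± 0.10), Tmpo, a lamin-binding protein of the nuclear envelope (0.62 ± 0.10), and Bzw2 (0.37 ± 0.06). The second probe set of Tmpo gave 0.32 ± 0.08 with overlapping arrays. Their limma adjusted p lay between 0.0386 and 0.048. Genes that just failed to pass, at a limma adjusted p of 0.0569, were Prrt1 (-1.19 ± 0.20), Lvrn (-2.60 ± 0.45), Trps1 (-0.58 ± 0.10), Osbpl6 (0.99 ± 0.17) and Cep68 (0.33 ± 0.06). The wound values of Lvrn, 5.38 to 6.70, lay near or below the array medians of 6.57 to 6.74, so the size of its fall is poorly measured.

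**Figure D4:**
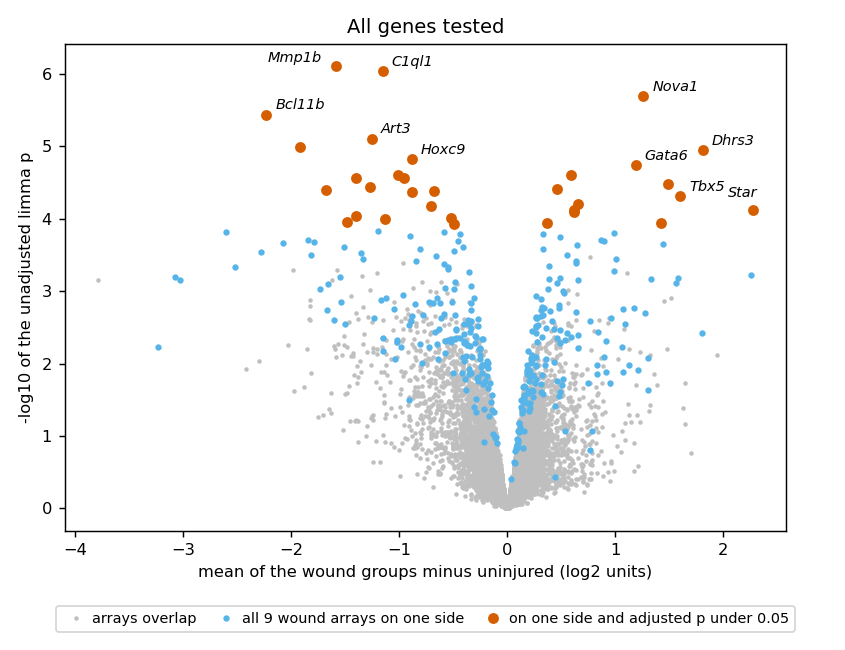
Each point is 1 of the 13153 genes tested, by the mean of the wound groups minus uninjured (x axis, log2 units) and by -log10 of the unadjusted limma p (y axis). Orange points passed the adjusted threshold, blue points had all 9 wound arrays on one side without passing, and grey points overlapped, and some of the largest differences, below -3, are blue or grey.

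The plot of all genes shows that a wide difference and a small p were often not the same genes. Of the 337 genes with non-overlapping arrays 305 did not pass, 66 of the 337 differed by at least 1 log2 unit, and 308 had an unadjusted p under 0.05, as had 1358 of all genes (10.3%), 562 higher and 796 lower. The genes named in the rest of this account of wide differences were picked after their values were seen. Reg3g, an antimicrobial lectin, stood at 11.09, 11.42 and 10.83 on the uninjured arrays and at 5.14 to 9.92 (median 8.59) on the wound arrays, a difference of -3.23 ± 0.94 (adjusted p = 0.232). Cyp2f2, a cytochrome P450, was 11.58, 11.82 and 10.64 against 6.27 to 9.89 (-3.07 ± 0.64, adjusted p = 0.104), and Ctla2a, a cathepsin inhibitor, was 11.84, 11.75 and 10.50 against 6.52 to 9.82 (-3.03 ± 0.63, adjusted p = 0.106). For these 3 genes the wound arrays spread over 3 log2 units or more, while still lying below uninjured skin.

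Matrix genes were among the wide differences that did not pass. Smoc2, a matricellular protein, differed by -2.52 ± 0.50 (adjusted p = 0.0893), and Tnxb, tenascin X, by -1.81 ± 0.34 (adjusted p = 0.0734). On the higher side were Slc40a1, the iron exporter ferroportin (2.26 ± 0.46, adjusted p = 0.102), Dlk1, a Notch-related protein of preadipocytes (1.80 ± 0.48, adjusted p = 0.201), Tril (1.58 ± 0.33, adjusted p = 0.104), Rpp25 (1.56 ± 0.33, adjusted p = 0.11), Adgrd1, an adhesion receptor (1.44 ± 0.26, adjusted p = 0.0628), and Eya4, a transcription coactivator (1.33 ± 0.28, adjusted p = 0.106). All 9 wound arrays were on one side of uninjured skin for each of these 8 genes. The uninjured values of Adgrd1, 6.08 to 6.17, lay below the array medians of 6.57 to 6.74, so Adgrd1 was tested through the wound arrays.

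Gene lists of pathways and cell types give the background to single genes, and of all 13153 genes 7017 lay above 0 and 6136 below. Matrix lists lay mostly below 0. Of 41 collagen and matrix genes 36 lay below 0, 1 fell (Col18a1) and the median was -0.40. Thbs1, the matricellular protein thrombospondin 1, differed by -1.12 ± 0.26 without overlap (adjusted p = 0.142), and Col7a1, the anchoring fibril collagen, by -0.57 ± 0.17 (adjusted p = 0.256). Of 29 matrix proteases and inhibitors 23 lay below 0, Mmp1b fell and Adam19 rose, and the median was -0.29 (-0.46 without uninjured vehicle replicate 3). Of 25 TGF-beta genes 17 lay below 0, Itgb8 fell and the median was -0.18 (-0.10 without uninjured vehicle replicate 1 and -0.30 without replicate 3), with Eng, a TGF-beta co-receptor, at -0.91 ± 0.23 (adjusted p = 0.179). Itgb8 was also the only one of 18 integrin genes to pass (median -0.17, and -0.05 without uninjured vehicle replicate 1). The TGF-beta, integrin and SKP lists share Itgb8, so these are not separate results.

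Immune and defence lists also lay below 0. Of 33 chemokine and NF-kappaB genes 30 lay below 0, Lcn2 fell and the median was -0.52. Cxcl1, a neutrophil attractant, differed by -1.67 ± 0.40 (adjusted p = 0.165) and Ccl7, a monocyte attractant, by -0.78 ± 0.19 (adjusted p = 0.179), each without overlap. Of 35 interferon genes 32 lay below 0 and 0 passed (median -0.35), with Psmb9, an immunoproteasome subunit, at -0.71 ± 0.17 (adjusted p = 0.153), and of 13 complement genes 11 lay below 0 and 0 passed (median -0.46), with C7, of the membrane attack complex, at -1.62 ± 0.34 (adjusted p = 0.106). At an unadjusted limma p under 0.05 the interferon list had 14 genes and the complement list 7, beside 10.3% of all genes tested.

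Of 30 growth factor genes 16 lay below 0 and 0 passed (median -0.09, 10 at an unadjusted limma p under 0.05), and the median was -0.15 without uninjured vehicle replicate 2. Fgf7, the keratinocyte growth factor, was 11.06, 10.71 and 10.68 on the uninjured arrays and 8.51 to 10.37 on the wound arrays (-1.54 ± 0.36, adjusted p = 0.147), and Pdgfd, a PDGF receptor ligand, differed by -1.05 ± 0.25 (adjusted p = 0.164). Of 24 cell cycle inhibitor and p53 genes 18 lay below 0 and 0 passed (median -0.13, 7 at an unadjusted limma p under 0.05), and the median was -0.05 without wound alprostadil replicate 2. Members of that list went both ways, with Btg2, an antiproliferative p53 target, at -1.35 ± 0.25 (adjusted p = 0.0717) and Cdkn1c, the inhibitor p57, at 1.01 ± 0.19 (adjusted p = 0.0781), both without overlap. In the BMP list 0 of 23 genes passed in limma (6 at an unadjusted p under 0.05), with Bmp5 at 1.45 ± 0.33 (adjusted p = 0.147), its target Id1 at 0.96 ± 0.24 and Bmp4 at -0.90 ± 0.23 (adjusted p = 0.179 for both).

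No gene of the sterol, mitosis or stress lists passed. All 19 sterol synthesis genes lay below 0, with a median of -0.61 (-0.94 without uninjured vehicle replicate 3), 1 at an unadjusted limma p under 0.05 and 0 with non-overlapping arrays. Of 32 mitosis genes 30 lay below 0 with a median of -0.19, and that median was 0.10 without uninjured vehicle replicate 1 and -0.55 without replicate 3. Uninjured vehicle replicate 1 had a mitosis score, the mean of the genes after centring each on the 12 arrays, of 0.73, and replicate 3 had -0.49. Of 30 stress genes of the ATF4 and ER pathways 26 lay above 0 with a median of 0.15, and it was 0.03 without uninjured vehicle replicate 1 and 0.44 without replicate 3. The scores of all 3 lists overlapped between wound and uninjured arrays.

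**Figure D5:**
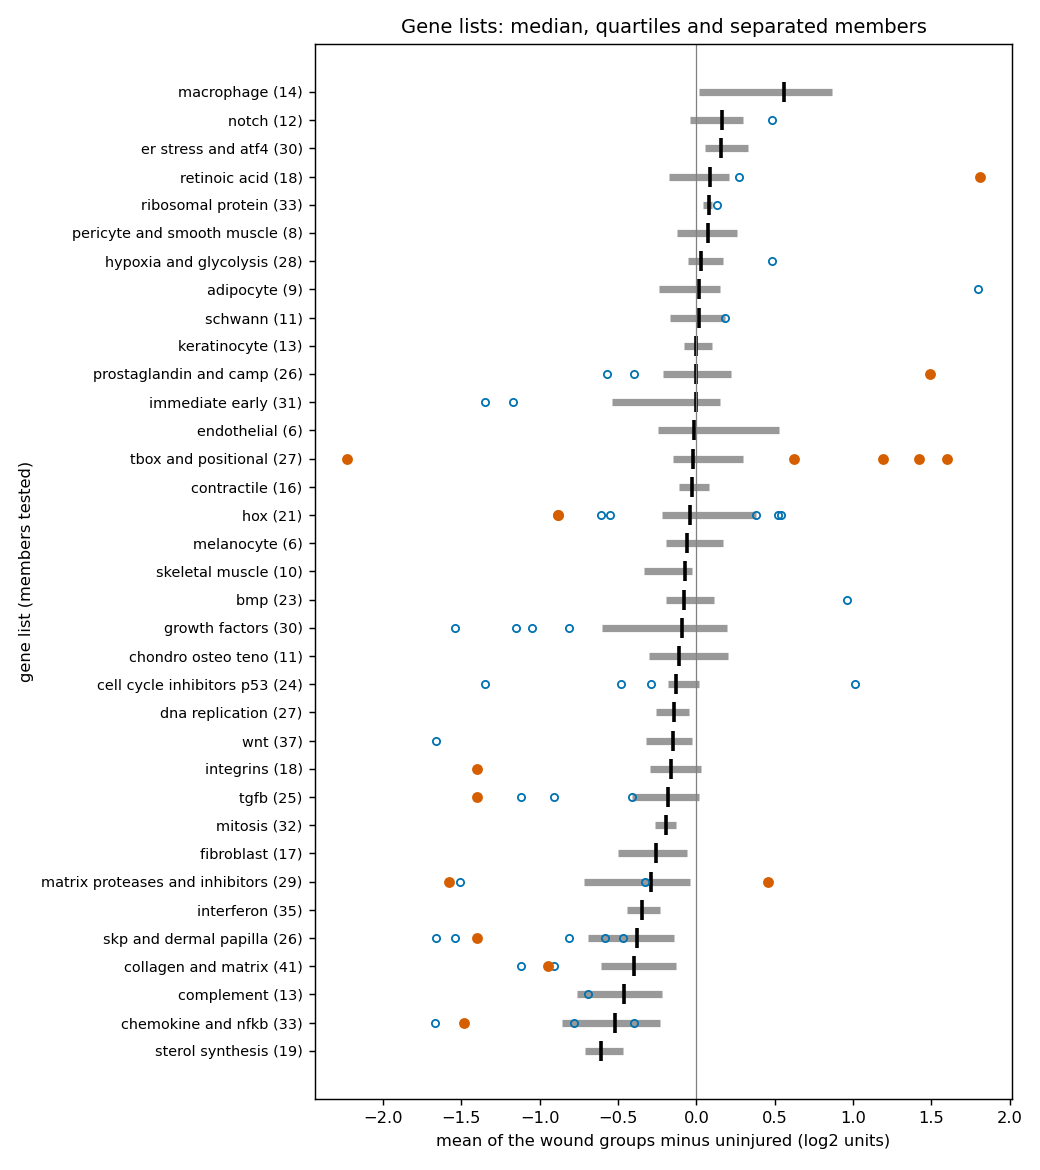
Rows are gene lists with their number of tested genes, black ticks are the median difference, grey bars the quartiles (x axis, wound groups minus uninjured, log2 units), orange points members past the threshold and open blue points other members with non-overlapping arrays. Sterol, chemokine, complement and matrix lists have the lowest medians, down to -0.61, the macrophage list the highest, 0.56, and Hox and T-box lists have medians near 0 with members far out on both sides.

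The plot of the lists shows the plotted genes that passed lying outside the quartiles of their lists. Of the 37 lists with a score, 0 had scores that separated the wound arrays from the uninjured arrays without overlap. Of the 32 genes that passed 15 were in a list and 17 in none.

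The labelled cell type was checked against its markers. Fn1, fibronectin, stood at 13.85, 13.88 and 13.81 on the uninjured arrays and 13.82 to 13.94 on the wound arrays, and Vim, vimentin, at 13.73, 13.76 and 13.66 against 13.61 to 13.84. Pdgfra, a receptor of dermal fibroblasts, was 12.38, 12.55 and 11.92 against 11.19 to 12.67. Snai2, a neural crest and mesenchyme factor, was 12.38, 12.29 and 12.15 against 11.89 to 12.23 (-0.22 ± 0.08, adjusted p = 0.352). Twist1 was 9.06, 9.19 and 9.07 against 8.80 to 9.27, and Ngfr was 7.19, 7.90 and 6.92 against 6.72 to 7.38. The neural stem cell marker Nes, nestin, reached at most 7.12 and Sox2, a factor of SKPs and dermal papilla, at most 5.61, so Sox2 was not tested. Nes and Sox2 thus lay near or below the array medians of 6.57 to 6.74. The bright markers Fn1, Vim and Pdgfra are also in the fibroblast list, so the name SKP rests on the labels and not on these values.

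Of 26 SKP and dermal papilla genes tested 20 lay below 0, Itgb8 fell, and 6 had all wound arrays below uninjured skin (23.1%, beside 1.27% of all genes tested), with a median of -0.38 (-0.57 without uninjured vehicle replicate 3). Like the Hox list, it was drawn up with results of these arrays known, so its share is not independent of them. Trps1, a GATA-type repressor of hair follicle mesenchyme, was 9.56, 9.86 and 9.45 against 8.90 to 9.29, Prom1, the stem cell surface protein prominin 1, was 8.23, 7.85 and 7.89 against 6.45 to 7.82 (-0.81 ± 0.15, adjusted p = 0.0665), and Rspo3, a Wnt amplifier, was 10.68, 10.66 and 9.85 against 7.78 to 9.73 (-1.66 ± 0.35, adjusted p = 0.111). Of 17 fibroblast genes 14 lay below 0 and 0 passed (median -0.26, 2 at an unadjusted limma p under 0.05). That median was -0.40 without uninjured vehicle replicate 3 and -0.16 without replicate 2. The fibroblast score was 0.02 to 0.39 on the uninjured arrays and 0.26 to 0.33 with trimebutine. It was 0.29 and 0.24 on replicate 3 of wound alprostadil and wound vehicle, and -0.73 to -0.37 on their replicates 1 and 2.

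Markers of macrophages were high on 1 array. Over 14 tested macrophage genes the score was -0.51 to 0.08 on the uninjured arrays and -0.87 to 3.40 on the wound arrays, where wound alprostadil replicate 1 had 3.40 and the next highest wound array 0.45. Of these genes 10 lay above 0 and 0 passed (0 at an unadjusted limma p under 0.05), with a median of 0.56 that was 0.10 without that array. Lyz2, lysozyme, was 10.74, 8.92 and 8.46 on the uninjured arrays and 7.05 to 12.84 on the wound arrays. Without wound alprostadil replicate 1, 6 genes were higher and 9 lower, and all 15 were among the 32. The part of macrophage RNA in the results was otherwise not tested. Gata2 is also a mast cell factor, and of the other tested mast cell genes Kit differed by 0.88 and Cpa3 by -0.83 without passing.

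The wound groups were also set beside each other, to see whether the shared difference was the same size with either drug as with vehicle. In the limma F test among the 3 wound groups 0 of 13153 genes passed (smallest adjusted p = 0.79), with 651 at an unadjusted p under 0.05, so a difference between wound groups was not detectable with 3 arrays in each. This test does not show that the groups were alike. The differences of the 3 wound groups from uninjured skin share the uninjured arrays and are given only side by side. Over the 32 genes their median size was 1.17 for wound vehicle, 1.14 for wound trimebutine and 0.98 for wound alprostadil, and the smallest of the 3 belonged to alprostadil for 18 genes, to trimebutine for 9 and to vehicle for 5.

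For 12 of the 32 genes the F test among wound groups had an unadjusted p under 0.05, beside 651 of all 13153 genes, and none passed after adjustment (0.79 to 0.991). The 32 were picked by a test that uses the same residual spread as this F test, so the count of 12 is not independent of the choice. Mmp1b differed from uninjured skin by -1.78 with vehicle, -1.88 with trimebutine and -1.08 with alprostadil (unadjusted F test p in limma = 0.00254). Mmp1a had -1.25, -2.33 and -0.97, and Zic1 had -1.36, -1.89 and -0.95. Tbx5 had 1.76, 1.97 and 1.08, and Prdm8 had 1.94, 1.00 and 1.32. Itgb8 had -1.79, -1.14 and -1.27, and Pde3b had 1.22, 1.94 and 1.30. Nova1 had 1.30, 1.29 and 1.19, and Syt13 had -1.11, -1.12 and -1.15. Bcl11b had -2.05, -2.56 and -2.07, and Star had 2.18, 2.55 and 2.12.

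Over whole arrays the wound and uninjured spheres were not the main axis of variation. In a principal component analysis the first component held 43.8% of the variance and the second 23.9%, and both overlapped between wound and uninjured arrays. The third, with 11.9%, did not, with uninjured arrays at -18.6 to -13.8 and wound arrays at -7 to 20.4. Correlations between any 2 arrays over all genes tested were 0.916 to 0.993, and array medians were 6.57 to 6.74.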

How the data were processed

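RNA of 12 SKP cultures was hybridised to Affymetrix mouse whole-transcript arrays (Mouse Gene, version 2.0 ST). The authors deposited log2 expression values per probe set, made with RMA and the package oligo, per the submitters' processing notes (settings, versions and scan dates: not given in the sources used here). With 3 arrays a group, the array number limits precision. RMA normalises arrays to one another, so a shift of all genes would not be seen. Of 41345 probe sets 23521 carry 1 gene symbol in the platform annotation, 1814 several and 16010 none, and the last 2 classes were not used. The probe set with the highest mean represented a symbol (22180 genes), and 13153 genes above the array median on at least 3 arrays were tested.

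All 4 groups entered 1 model in limma 3.58.1 (R 4.3.3) with 8 residual degrees of freedom and no covariate. The contrast was the mean of the 3 wound group means minus uninjured, two-sided, with Benjamini-Hochberg adjustment over all genes tested and a threshold of 0.05. An F test compared the wound groups in the same fit. Scripts were tested on simulated data. Replicate numbers were not taken to pair the arrays. All genes past the threshold are named, the 3 smallest p of each list described, Hox and positional genes without overlap, and markers; other genes were named after their values were seen. The members and the 38 lists were chosen with earlier results of these data known. Lists are described by counts and medians, with no test. Alternatives were a replicate block, filters, probe set rules, normalisations, variance models, array weights, groups, thresholds and omissions of arrays. Promoters were aligned with Biopython 1.88, and figures drawn with Python 3.11.15 and matplotlib 3.10.9.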

Additional observations from a re-analysis of the deposited data

Results flagged for a closer look

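A Dixon test for a single value far from the rest was applied to the 9 wound arrays of each of the 32 genes past the threshold and of each of the 37 list scores. Chance flags about 1 in 20 such groups, so flags are expected by chance among this many. Thrb was high in wound alprostadil replicate 3, at 7.91 against 7.67 on the next wound array, a gap of 0.57 of the range. The macrophage score was high in wound alprostadil replicate 1, at 3.40 against 0.45 on the next wound array, a gap of 0.69 of the range. The endothelial score was high in the same array, at 0.44 against 0.16, a gap of 0.50 of the range.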

How the results depend on the processing

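With all 12 arrays 13 genes were higher and 19 lower, 170 had all wound arrays above and 167 below, and 0 differed among the wound groups. No alternative reversed the sign of a gene past the threshold, and all 32 stayed without overlap after median centring and after cyclic loess. For omissions of arrays or groups the sign was fixed in advance, since the arrays of these genes do not overlap. Leaving out 1 array gave 0 to 25 higher, 0 to 51 lower, 0 to 1 among wound groups (1 without wound alprostadil replicate 2, and 1 without replicate 3 of wound vehicle), 176 to 794 above and 172 to 846 below. Without the 3 arrays of lowest median (replicate 1 of uninjured vehicle, wound trimebutine and wound alprostadil) there were 0 and 0, with 642 above and 596 below. With the replicate number as a block there were 5 higher and 24 lower, 19 of these 29 among the 32. The 13 lost, Tbx5, Prdm8, Nr2f2, Star and Zic1 among them, had adjusted p of 0.0538 to 0.0823 in limma. Deviations of same-numbered arrays correlated at -0.64 to 0.62 (median 0.225, over 0.1 in 11 of 18 pairs), those of other arrays at -0.57 to 0.58 (median -0.11), and 5 of 12 arrays correlated best with their own number, so the numbers were not taken as pairs. Median centring gave 8 higher and 16 lower. Array weights, which ran from 0.30 to 5.99, gave 2196 higher, 1979 lower and 2512 among wound groups; the cause was not tested. With 9 wound arrays as 1 group 29 were lower. Wound vehicle alone in the contrast gave 1 and 5, with 1053 above and 1317 below. Leaving a group out of the contrast gave 5 and 9 (268 above) without wound vehicle, 6 and 10 (309 above, 306 below) without wound trimebutine, and 295 above and 374 below without wound alprostadil. An adjusted p under 0.1 gave 29 and 47, one under 0.01 gave 1 and 2, and an unadjusted p under 0.05 gave 562 and 796, and 651 among wound groups. Filters, probe set rules, cyclic loess and variance models kept the counts within 1.5 times, but a filter of 9 arrays leaves Mmp1b, C1ql1, Bcl11b and Hoxc10 untested (28 of the 32 kept) and one of all 12 arrays also Hoxc9, Alb, Tbx5 and Prdm8 (24 kept). Only 3 arrays stand for uninjured skin, and genes near the array median are limited by background.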
